A study of Mus musculus with 12 samples.

Results

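Acute phase proteins are plasma proteins whose production by the liver shifts during inflammation, and 10 of their genes were followed here in the livers of mice with carbon tetrachloride (CCl4) fibrosis. They were chosen by name out of 21936 genes: 7 positive acute phase genes, which usually rise in inflammation (Saa1, Saa2, Saa3, Orm1, Orm2, Lcn2 and Hp), and 3 negative ones, which usually fall (Alb, Ttr and Trf). All 10 were detected in every library and passed the filter on low counts in every comparison. RNA from whole liver was sequenced, and the number of reads assigned to each gene was counted, in 9 libraries of 3 groups with 3 libraries each. A further group, treated with hADMSCs, is not analysed here.

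All mice were male C57BL/6 animals (C57BL/6J in the study's methods), bought at 6 weeks of age, and all had received CCl4 in olive oil by intraperitoneal injection at 1 mL/kg, 2 times a week for 8 weeks. The liver fibrosis group (LFG) was killed at the end of the CCl4 course. The regression group (REG) was then given 200 μL of phosphate-buffered saline (PBS) into the tail vein 2 times a week for 4 weeks. The hADMSCs-Exo group was given 250 μg of exosomes, small vesicles shed by human adipose-derived mesenchymal stem cells, in the same volume and on the same schedule. Its libraries are those in the columns headed MSC_E, read here as the samples titled Exo with the same numbers, and every hADMSCs-Exo value rests on that reading. LFG livers were therefore taken 4 weeks earlier than the others, so that time after CCl4 and age cannot be told apart from the treatment in comparisons with LFG, and no mouse without CCl4 was part of these 9 libraries. Nothing in the labels says which animal each library came from, so p-values measure the spread between these samples.

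The genes lie in the mouse genome build GRCm38, and each has the same start and end in the GENCODE annotation of that build. Saa1 (ENSMUSG00000074115, chr7:46740497-46742980, minus strand), Saa2 (ENSMUSG00000057465, chr7:46751790-46754313, plus strand) and Saa3 (ENSMUSG00000040026, chr7:46711998-46715700, minus strand) are neighbours: Saa1 lies 8.81 kb from Saa2 and 24.8 kb from Saa3. Orm1 (ENSMUSG00000039196, chr4:63344560-63348163) and Orm2 (ENSMUSG00000061540, chr4:63362449-63365878) lie 14.3 kb apart, both on the plus strand. Lcn2 is at chr2:32384633-32388252 (minus strand), Hp at chr8:109575128-109579172 (minus), Alb at chr5:90460897-90476602 (plus), Ttr at chr18:20665280-20674321 (plus) and Trf at chr9:103204001-103230444 (minus).

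In the liver, the positive acute phase genes are switched on mainly in hepatocytes by interleukin-6, through the transcription factor STAT3, and by interleukin-1, through NF-kB and the C/EBP factors. Serum amyloid A proteins (Saa genes) travel on high-density lipoprotein and recruit leukocytes, the orosomucoids (Orm genes) bind drugs and lipids, lipocalin 2 (Lcn2) withholds iron-loaded siderophores from bacteria, and haptoglobin (Hp) captures free haemoglobin. Albumin (Alb), transthyretin (Ttr, a carrier of thyroxine and retinol-binding protein) and transferrin (Trf, the carrier of iron) are the constitutive products against which this response is read.

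Of the 10 genes, 6 had an entry in the RefSeq promoter sequences of build GRCm38.p6, and 5 are shown, to set those of the Saa genes and Orm2 beside that of Alb. Lcn2 is left out because annotated exons of the gene cover 197 of the 250 bases before its start, and in Saa2 and Saa3 they cover 43 and 24 of those bases, all outside the stretch shown. Each run gives the 200 bases from 250 to 51 bases before the RefSeq start site, read 5′ to 3′ on the gene's own strand. Capitals mark the letters TTNNGCAA on either strand, a core of the sequence that C/EBP factors bind.
Saa1 (chr7:46743031-46743230, minus strand): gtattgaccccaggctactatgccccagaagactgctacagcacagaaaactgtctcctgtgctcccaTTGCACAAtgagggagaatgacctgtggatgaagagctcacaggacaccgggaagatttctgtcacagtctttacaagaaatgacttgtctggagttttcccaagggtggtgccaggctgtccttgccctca
Saa2 (chr7:46751583-46751782, plus strand): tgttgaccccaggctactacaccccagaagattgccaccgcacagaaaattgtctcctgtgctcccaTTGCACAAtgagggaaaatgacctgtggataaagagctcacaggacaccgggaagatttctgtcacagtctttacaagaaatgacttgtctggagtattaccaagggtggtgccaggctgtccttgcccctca
Saa3 (chr7:46715727-46715926, minus strand): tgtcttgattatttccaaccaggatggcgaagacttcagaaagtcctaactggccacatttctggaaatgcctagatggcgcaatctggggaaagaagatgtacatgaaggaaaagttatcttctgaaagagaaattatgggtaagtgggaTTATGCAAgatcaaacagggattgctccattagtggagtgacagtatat
Orm2 (chr4:63362199-63362398, plus strand): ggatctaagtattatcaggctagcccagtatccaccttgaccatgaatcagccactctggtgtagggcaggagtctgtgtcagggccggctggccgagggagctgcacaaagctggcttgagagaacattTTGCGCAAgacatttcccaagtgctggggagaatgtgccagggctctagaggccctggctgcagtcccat
Alb (chr5:90460620-90460819, plus strand): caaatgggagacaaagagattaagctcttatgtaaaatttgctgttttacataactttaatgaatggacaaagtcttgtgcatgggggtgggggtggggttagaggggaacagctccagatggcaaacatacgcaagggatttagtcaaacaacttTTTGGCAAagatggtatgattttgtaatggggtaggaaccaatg

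Saa1 and Saa2 had nearly the same promoter, with 94.8% of aligned positions identical over the 250 bases before the start, against 46.2% to 54.5% in the other 14 pairs of promoters, and their C/EBP match has the same letters, TTGCACAA, at 182 to 175 and 183 to 176 bases before the start. Each of the 6 promoters held 1 match to TTNNGCAA, Alb and Lcn2 included, compared with 9.56% of all 32851 promoter entries over the same 250 bases. Searched on both strands, the letters TTCNNNGAA (STAT3) and GGGNNTTTC (a core for NF-kB) had no match in any of the 6 promoters, and 7.02% and 3.72% of all entries held them. The letters TATAAA of the TATA box, held by 12.4% of all entries, matched in Orm2 only, at 33 to 28 bases before the start. None of these matches overlapped another. A match describes the letters only, and the windows are short.

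The closeness of these genes also bears on counting. With the longest coding transcript of each gene cut into overlapping words of 50 bases, 14.8% of the words of Saa1 and 9.12% of those of Saa2 also occurred in a transcript of another gene, and 20.4% and 22.7% of those of Orm1 and Orm2. At 100 bases the shares were 0% for Saa1 and Saa2 and 6.95% for Orm1 and Orm2. The split of reads is therefore uncertain at both lengths for the Orm pair, and for the Saa pair at 50 bases only. Trf shared 79.8% of its 50-base words with Gm20425, an annotated gene on the same locus that has no row in the table used here. Whether the counting used the strand of the reads is not given in the sources used here.

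The libraries held 13837445 to 19840917 counted reads, and the 10 genes took 11.4% to 17.3% of them. The markers of hepatocytes were present throughout, with 10 of 10 detected in every library, but their summed level was uneven in LFG, at 23602, 34234 and 61966 CPM in LFG 1, 2 and 3 against 36545 to 43868 CPM in the other 6 libraries. Single markers differed: Apoa1 was at 4712, 6762 and 22551 CPM in LFG 1, 2 and 3. Cps1 was at 4084, 5493 and 1595 CPM there, and Apob at 3891, 4220 and 3786 CPM. A pair of libraries stood apart from their groups. LFG 3 correlated with LFG 1 and LFG 2 at only r = 0.834 and 0.874 in log2 CPM (CPM, a gene's counts per 1000000 counts of the library, scaled by TMM factors) over 12760 genes, against 0.959 to 0.981 for the other pairs of replicates, and its markers of macrophages and of stellate cells and fibroblasts were low. The summed level of 12 macrophage markers was 155 CPM in LFG 3 against 1904 and 1404 CPM in LFG 1 and LFG 2, with Gpnmb at 0, and that of 10 stellate cell and fibroblast markers was 37.9 CPM against 1281 and 806 CPM. hADMSCs-Exo 3 stood apart in the acute phase genes themselves: the 7 positive genes took 2.50% of its reads and 0.640% to 0.922% of the reads of the other 8 libraries. The comparisons are therefore also given without these libraries, for all or some of the 10 genes. In RNA from whole tissue, fewer cells of a type and less RNA per cell cannot be told apart.

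Per length of gene, the median FPKM over the 9 libraries fell from Alb at 46040 through Ttr at 7037, Trf at 5537, Hp at 3080 and Orm1 at 2183 to Orm2 at 304, Saa1 at 147, Saa2 at 76.5, Lcn2 at 62.4 and Saa3 at 6.55. Only the first step, from Alb to Ttr, separated the 9 values of one gene from the 9 of the next, and all other neighbours in this order overlapped. These FPKM values divide by the length of all annotated exons joined, which for Saa1 is 2478 bases although its coding transcript is 609 bases long, so a level per base of that transcript would be higher. The negative genes varied least: between the lowest and the highest library, CPM differed by 1.71-fold for Trf, 2.17-fold for Alb and 2.26-fold for Ttr, but by 21.8-fold for Orm2, 23.2-fold for Saa1, 41.1-fold for Saa2 and 62.7-fold for Lcn2. Hp, Orm1 and Saa3 lay between, at 4.47-fold, 3.47-fold and 5.04-fold.

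Saa1 and Saa2, the inducible serum amyloid A genes of the hepatocyte, had a similar order of libraries, with an exception in LFG, where LFG 3 was highest for Saa1 and LFG 1 for Saa2. Saa1 was at 606, 243 and 1000 CPM in LFG 1, 2 and 3, at 646, 174 and 175 CPM in REG 1, 2 and 3, and at 354, 171 and 3953 CPM in hADMSCs-Exo 1, 2 and 3. Saa2 was at 415, 115 and 355 CPM in LFG, at 590, 82.4 and 82.2 CPM in REG, and at 188, 82.2 and 3377 CPM in hADMSCs-Exo, in the same order. One hADMSCs-Exo library thus lay far above all the others, REG 1 lay above REG 2 and REG 3, which were below all 3 LFG libraries, and the 3 groups overlapped for both genes when all their libraries are taken. hADMSCs-Exo 3 exceeded the mean of hADMSCs-Exo 1 and 2 by 15.1-fold for Saa1 and 25.0-fold for Saa2, while REG 1 exceeded the mean of REG 2 and REG 3 by 3.70-fold and 7.17-fold. The SD of log2 CPM within hADMSCs-Exo, 2.37 for Saa1 and 2.81 for Saa2, was larger than that of 99.9% of the 12760 genes tested.

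Saa3, the serum amyloid A gene known mainly from macrophages, adipose tissue and other cells outside the hepatocyte, was rare. It had 228 to 343 counts in LFG, 147 to 272 in REG and 281 to 624 in hADMSCs-Exo, or 14.4, 12.7 and 22.6 CPM in LFG 1, 2 and 3, 10.1, 14.9 and 7.80 CPM in REG, and 16.6, 24.5 and 39.3 CPM in hADMSCs-Exo. The lowest hADMSCs-Exo level, 16.6 CPM, was above the highest REG level, 14.9 CPM, and REG 1, high in Saa1 and Saa2, was not high in Saa3. The summed level of the 12 macrophage markers did not separate these groups, at 962 to 1196 CPM in hADMSCs-Exo and 514 to 1498 CPM in REG, whereas the 10 stellate cell and fibroblast markers were lower in hADMSCs-Exo with no overlap, at 47.7, 126 and 89.3 CPM against 213, 262 and 148 CPM in REG. The part of either cell type in the level of Saa3, or in the other differences from REG, was not tested.

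Orm1, the most abundant of the orosomucoid genes here, was at 1906, 1531 and 2093 CPM in LFG 1, 2 and 3, at 2690, 1782 and 1672 CPM in REG, and at 2165, 1371 and 4761 CPM in hADMSCs-Exo. Its highest libraries were hADMSCs-Exo 3 and REG 1, as for Saa2, and the groups overlapped. Orm2 was at 247, 107 and 249 CPM in LFG, at 242, 91.0 and 139 CPM in REG, and at 334, 264 and 1984 CPM in hADMSCs-Exo, so that the lowest hADMSCs-Exo library lay above the highest library of either other group. Orm2 was the only one of the 10 genes whose 3 hADMSCs-Exo libraries were its 3 highest.

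Lcn2, made by hepatocytes in inflammation and by neutrophils and macrophages, followed another order. It was at 246, 260 and 14.5 CPM in LFG 1, 2 and 3, at 168, 118 and 137 CPM in REG, and at 55.5, 240 and 909 CPM in hADMSCs-Exo. LFG 3 had the lowest value of all, with 162 counts, hADMSCs-Exo 1 the second lowest and hADMSCs-Exo 3 the highest, and only REG was tight. LFG 3 was also the library with the fewest reads on macrophage and fibroblast markers, and the part of those cells in its low Lcn2 was not tested. The 12 neutrophil markers summed to 50.6, 80.5 and 82.8 CPM in hADMSCs-Exo 1, 2 and 3, beside Lcn2 levels of 55.5, 240 and 909 CPM. REG 1 had the highest sum of those markers, 88.1 CPM, against 23.3 and 14.4 CPM in REG 2 and REG 3, with Lcn2 at 1.32 times the mean of REG 2 and REG 3. The part of neutrophils in the level of Lcn2 was not tested.

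Hp was at 2623, 4355 and 6721 CPM in LFG 1, 2 and 3, at 5114, 4672 and 5209 CPM in REG, and at 4404, 6167 and 11729 CPM in hADMSCs-Exo. Only hADMSCs-Exo 3 lay outside the range of LFG, and the 3 groups overlapped. Hp was even within REG, where its SD of log2 CPM was 0.084.

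**Figure D1:**
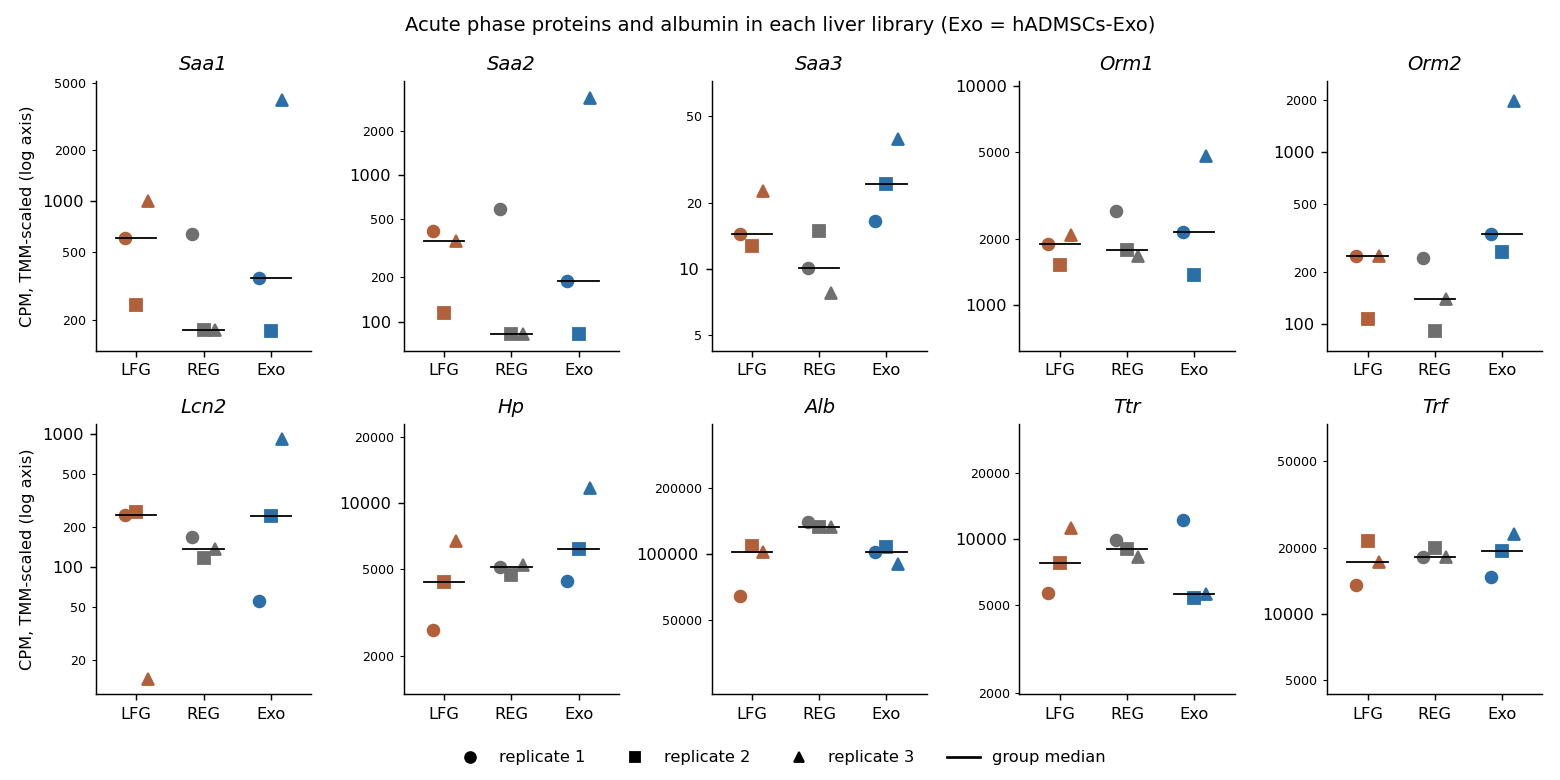
Level of each gene in every library, as TMM-scaled CPM on a log axis, by group (LFG, REG and Exo for hADMSCs-Exo), with 1 symbol per replicate number and a bar at the group median. In the 7 positive genes the triangle of hADMSCs-Exo is the highest point, from 39.3 CPM for Saa3 to 11729 CPM for Hp, whereas Alb is highest in the 3 REG libraries.

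Alb was at 64219, 108390 and 101742 CPM in LFG 1, 2 and 3, at 139469, 132067 and 132673 CPM in REG, and at 102129, 106924 and 90020 CPM in hADMSCs-Exo. The 3 REG libraries lay above the other 6, and within REG the SD of its log2 CPM was 0.044, against a median of 0.231 over all genes. Ttr had no such order: it was at 5705, 7779 and 11276 CPM in LFG, at 9877, 9044 and 8325 CPM in REG, and at 12191, 5401 and 5621 CPM in hADMSCs-Exo, where hADMSCs-Exo 1 had the highest and hADMSCs-Exo 2 the lowest level of all 9 libraries. Trf was at 13642, 21570 and 17376 CPM in LFG, at 18304, 19921 and 18228 CPM in REG, and at 14767, 19371 and 23296 CPM in hADMSCs-Exo. Its highest library was hADMSCs-Exo 3, so the 3 negative genes did not move together there: relative to the mean of hADMSCs-Exo 1 and 2, Alb was at 0.861, Ttr at 0.639 and Trf at 1.36.

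In ratios taken inside a library, which no scaling between libraries can change, Saa1 had 43.9 counts per 1000 Alb counts in hADMSCs-Exo 3, against 3.46 and 1.60 in hADMSCs-Exo 1 and 2, 1.32 to 4.63 in REG and 2.25 to 9.83 in LFG. Hp had 130 counts per 1000 Alb counts in hADMSCs-Exo 3 against 35.4 to 66.1 in the other 8 libraries. Lcn2 had 10.1 in that library against 0.142 to 3.83 in the others.

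The composition within gene pairs moved as well. Saa2 had 47.0 to 48.2 counts per 100 Saa1 counts in the 4 libraries with the lowest Saa1 (LFG 2, REG 2, REG 3 and hADMSCs-Exo 2) and 53.1 in hADMSCs-Exo 1, but 91.4 in REG 1, 85.4 in hADMSCs-Exo 3 and 68.6 in LFG 1. LFG 3 was the exception: with the second highest Saa1, it had 35.4 Saa2 counts per 100 Saa1 counts, the lowest of the 9 libraries. Orm2 had 41.7 counts per 100 Orm1 counts in hADMSCs-Exo 3, and 15.4 and 19.2 in hADMSCs-Exo 1 and 2, above the 5.11 to 8.98 of REG and the 6.97 to 13.0 of LFG. The hADMSCs-Exo libraries therefore did not overlap with the other groups in this ratio, including those without a high Orm1, within the uncertainty of counting between the paired genes given above.

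**Figure D2:**
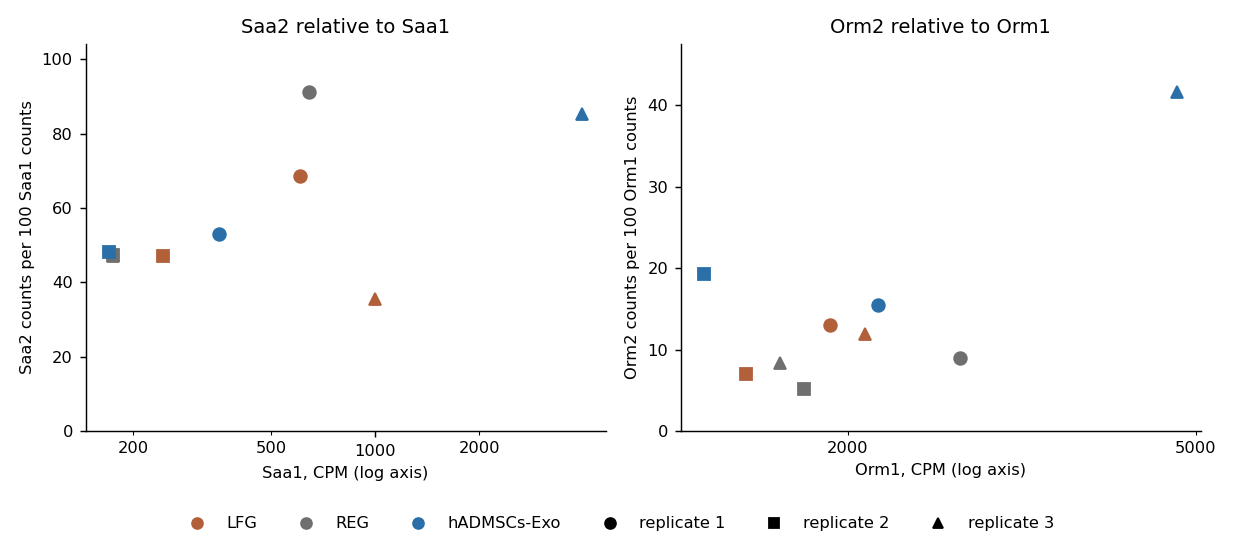
Counts of Saa2 per 100 counts of Saa1 against the level of Saa1 in CPM (left), and counts of Orm2 per 100 counts of Orm1 against the level of Orm1 in CPM (right), both with a log horizontal axis, colours for groups and symbols for replicate numbers. The ratio reaches 91.4 in REG 1 and 85.4 in hADMSCs-Exo 3 on the left, and 41.7 in hADMSCs-Exo 3 on the right, where the 3 hADMSCs-Exo points are the highest.

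The comparison of hADMSCs-Exo with REG asks what the exosomes changed beyond spontaneous regression. A gene was called where its adjusted p was under 0.05 and it differed by 1 or more on the log2 scale in either direction. By these thresholds edgeR's quasi-likelihood test called none of the 10 genes and 0.00811% of 12337 genes. All 7 positive genes had a positive log2 fold change, with a median of 1.51 against 0.0080 over all genes, and 51.1% of all genes were on that side. The largest differences were those of Orm2 at 2.44 (standard error 0.78, adjusted p = 0.409), Saa2 at 2.26 (1.37, adjusted p = 0.603) and Saa1 at 2.16 (1.11, adjusted p = 0.550), followed by Lcn2 at 1.51 (0.79) and Saa3 at 1.29 (0.34, adjusted p = 0.394). Hp was at 0.57 and Orm1 at 0.43.

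Alb was at -0.44 in the same comparison (standard error 0.20, adjusted p = 0.515 from edgeR's test), Ttr at -0.24 and Trf at 0.025. Ttr was at -0.72 without hADMSCs-Exo 1, its highest library, at -0.034 without hADMSCs-Exo 2 and at -0.052 without hADMSCs-Exo 3. Saa3 and Orm2 had an unadjusted p under 0.05 in edgeR's test, 2 of 10 against 10.0% of all genes. Saa3 and Orm2 were higher in hADMSCs-Exo and Alb was lower with no overlap between the groups, 3 of 10 against 15.5% of all genes. DESeq2 called 1 of the 10, Saa3, with a log2 fold change of 1.29 and an adjusted p of 0.0292, where it called 0.543% of all genes, and gave no adjusted p for Saa2.

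Without hADMSCs-Exo 3, the differences of Saa1, Saa2 and Orm1 changed sign, to -0.36, -0.92 and -0.22, and those of Lcn2 and Hp fell to 0.067 and 0.077. The median of the 7 positive genes was then 0.067, with 4 higher and 3 lower. Orm2 fell from 2.44 to 0.91 (standard error 0.39) and Saa3 from 1.29 to 0.91 (0.30), both then under the limit of 1, and both kept an unadjusted p under 0.05, with an adjusted p of 0.514 for Orm2 and 0.505 for Saa3 in edgeR's test. Alb stayed at -0.37.

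**Figure D3:**
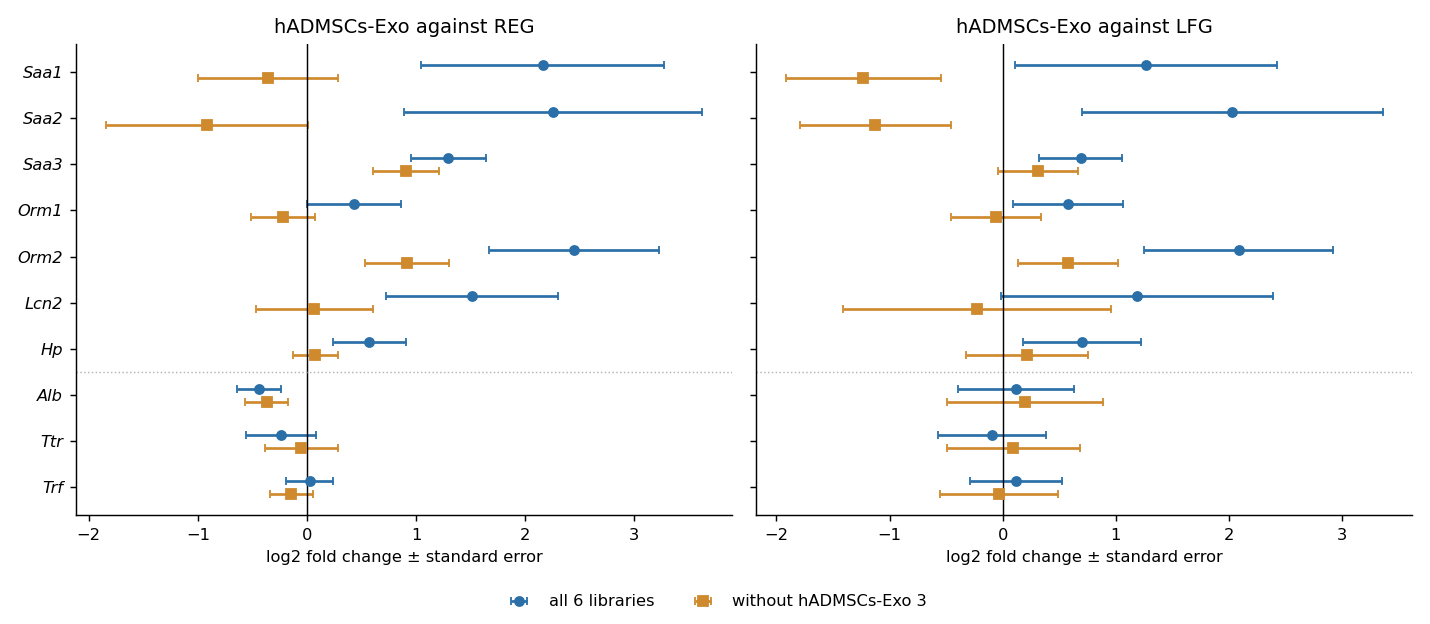
Log2 fold change of each gene in hADMSCs-Exo against REG (left) and against LFG (right) from edgeR, with bars for the standard error, using all 6 libraries (circles) or leaving out hADMSCs-Exo 3 (squares); the dotted line parts positive from negative genes. Saa1 moves from 2.16 to -0.36 against REG and from 1.27 to -1.23 against LFG, whereas Saa3 and Orm2 stay above 0 in both.

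Against LFG, the group killed when CCl4 ended, hADMSCs-Exo again had 0 of the 10 genes past the thresholds, as had 0.0% of 12489 genes in edgeR's test, and 1 of 10 at an unadjusted p under 0.05 against 5.98% of all genes. DESeq2 called 0 of the 10 and 0.48% of all genes, with no adjusted p given for Saa2. The REG and LFG comparisons share the hADMSCs-Exo libraries and so are not independent. The differences were 2.09 for Orm2 (standard error 0.84, adjusted p = 0.805), 2.03 for Saa2 (1.33), 1.27 for Saa1 (1.15), 1.19 for Lcn2 (1.20), 0.70 for Hp, 0.69 for Saa3 and 0.58 for Orm1, with a median of 1.19 against -0.059 over all genes. With the replicate number as a block, Saa1 was at 0.17, Saa2 at 0.35, Lcn2 at 0.53 and Orm2 at 1.55, with none of the 10 genes called. Orm2 alone did not overlap, 1 of 10 against 12.3% of all genes.

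Alb, Ttr and Trf were at 0.12, -0.097 and 0.12 against LFG, each less than its standard error of 0.41 to 0.51. Within LFG, Hp and Ttr had the same order of libraries as the summed hepatocyte markers, lowest in LFG 1 and highest in LFG 3. Alb was also lowest in LFG 1. Not every marker had that order, as Cps1 was lowest in LFG 3. The part of the markers in the comparisons with LFG was not tested. Without hADMSCs-Exo 3, Saa1 was at -1.23 and Saa2 at -1.13, Lcn2 at -0.23 and Orm1 at -0.058, and the median was -0.058. Orm2 was then at 0.57 (standard error 0.44), Saa3 at 0.31 and Hp at 0.21. Leaving out LFG 3 instead kept all 7 positive genes higher, with a median of 1.11, and still called none of them, although 5.97% of all genes passed. Of other liver genes tied to this response, Igfals, a plasma carrier protein (1.69, adjusted p = 0.0321), and Il1rap, the accessory chain of the interleukin-1 receptor (1.26, adjusted p = 0.0489), were then called by edgeR's test, both higher in hADMSCs-Exo. They were 1 of 20 and 1 of 17 tested genes of their lists described below, against 5.97% of all genes. The lists of other positive genes and of transcription factors had 0 of 22 and 0 of 12. With both libraries left out, Saa1, Saa2 and Lcn2 were at -0.69, -0.97 and -0.77, and the other 4 positive genes were above 0.

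Between REG and LFG, the change during regression without exosomes, 0 of the 10 genes and 0.0% of 12517 genes passed the thresholds, and 0 of 10 genes, against 11.3% of all, had an unadjusted p under 0.05 in edgeR's test. DESeq2 called none of the 10 and 1.91% of all genes. Of the positive genes, 5 were lower and 2 higher in REG, with a median of -0.28, from Saa1 at -0.88 (standard error 0.70) and Saa3 at -0.59 (0.34) to Orm1 at 0.17. Alb was at 0.57 (0.47, adjusted p = 0.657) and did not overlap, 1 of 10 against 18.9% of all genes, and Ttr and Trf were at 0.15 and 0.11, with the summed hepatocyte markers at 36545 to 41886 CPM in REG and 23602 to 61966 CPM in LFG. Without LFG 3, 10.7% of genes passed the thresholds but again none of the 10. Saa1 was then at -0.32, Saa2 at -0.037, Saa3 at -0.27, Orm2 at -0.13, Orm1 at 0.30 and Hp at 0.56. Alb, Ttr and Trf were at 0.69, 0.47 and 0.14. Lcn2 was then at -0.80 (standard error 0.20) with an adjusted p of 0.0372 in edgeR's test, lower in all 3 REG libraries than in LFG 1 and LFG 2, with its size under the limit of 1. LFG 3, the library left out, had the lowest Lcn2, 14.5 CPM. With all libraries Lcn2 was at -0.28 (standard error 0.85, adjusted p = 0.921 in edgeR's test). Leaving out REG 1 instead of LFG 3 put Saa1 at -1.78.

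The acute phase response has further genes, and a list of 24 others known to rise in it, of which 22 were tested, had no gene past the thresholds of edgeR's test in any comparison of all libraries. Against REG, 17 were higher and 5 lower in hADMSCs-Exo, with a median of 0.25. The smallest p-values were those of Cd14, a co-receptor for bacterial lipopolysaccharide, at 0.87 (adjusted p = 0.402, edgeR) and Steap4, a metalloreductase, at 0.54, and on the lower side those of the fibrinogen genes Fgg and Fgb, both at -0.32. Without hADMSCs-Exo 3 the count was 9 higher and 13 lower, with a median of -0.12.

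Against LFG all 22 were higher in hADMSCs-Exo, with a median of 0.58 against -0.059 over all genes and 43.1% of all genes higher, and 21 of 22 stayed higher without hADMSCs-Exo 3 at a median of 0.35. Without LFG 3, 20 were higher and 2 lower (Il1rn at -0.18 and Cd14 at -0.071), with a median of 0.62. Metallothionein 1 (Mt1) at 1.85 and Orm3 at 1.84 had the smallest p-values, with an adjusted p of 0.805 for both in edgeR's test. REG against LFG had 17 higher and 5 lower with a median of 0.51. There Fga at 1.29 and Fgb at 1.17, which encode fibrinogen chains, were first, and DESeq2 called both (adjusted p = 2.78e-07 and 0.00204), 2 of 22 against 1.91% of all genes. Without LFG 3, edgeR's test called Fgg at 1.31 (adjusted p = 0.0276), Fgb at 1.40 (adjusted p = 0.0297) and Fga at 1.36 (adjusted p = 0.0297), 3 of the 22 genes, higher in REG, where 3.81% of all genes were. In REG against LFG without LFG 3, Saa1 was at -0.32 (standard error 0.63), Saa2 at -0.037 (0.91) and Saa3 at -0.27 (0.29). Each of these was smaller than its standard error, and Lcn2 was at -0.80 (0.20).

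A list of 20 other negative acute phase and constitutive plasma protein genes had 9 higher and 11 lower in hADMSCs-Exo against REG, with a median of -0.094, and 6 higher and 14 lower without hADMSCs-Exo 3. Against LFG it had 16 higher and 4 lower (median 0.24), 15 and 5 without hADMSCs-Exo 3 and 19 and 1 without LFG 3 (median 0.72), and in REG against LFG 14 higher and 6 lower (median 0.41). With all libraries, none passed the thresholds in edgeR's test or in DESeq2. Apoh, a phospholipid-binding plasma protein, had the smallest p on the lower side against REG (-0.38, adjusted p = 0.479, edgeR), and Apom, a lipoprotein carrier of sphingosine-1-phosphate, the smallest in REG against LFG (0.81, adjusted p = 0.312). Without LFG 3, 19 of 20 were higher in REG with a median of 0.83, against -0.0051 and 49.8% higher over all genes. The hepatocyte markers were then also higher in REG with no overlap, at 36545 to 41886 CPM against 23602 and 34234 CPM in LFG 1 and 2, and their part in this count was not tested. Igfals, which stabilises IGF1 in plasma, was the only one past the thresholds of edgeR's test (1.54, adjusted p = 0.0232), 1 of 20 against 3.81% of all genes.

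Upstream of these genes, of 20 genes of IL-6, IL-1 and STAT3 signaling, 17 were tested against REG, with 13 higher and 4 lower in hADMSCs-Exo at a median of 0.12 and none past the thresholds. Nfkbiz, a nuclear partner of NF-kB, at 0.88 and the IL-6 receptor Il6ra at 0.81 had the smallest p-values, and Socs3, the feedback inhibitor that STAT3 induces, was at -0.29 (adjusted p = 0.578, edgeR). Against LFG the list split into 9 higher and 8 lower, with Il6ra at 0.71 and Il1b at 1.19 first, both with an adjusted p of 0.805 in edgeR's test. Il1b was rare, at 1.60, 2.51 and 2.06 CPM in LFG and 4.38, 6.20 and 3.53 CPM in hADMSCs-Exo. In REG against LFG 7 were higher and 9 lower, and the IL-1 receptor Il1r1 was at -1.31 (adjusted p = 0.318, edgeR). DESeq2 called Il1r1 in that comparison (-1.30, adjusted p = 0.0381), 1 of 16 against 1.91% of all genes. Without LFG 3, edgeR's test called Il1rap higher in REG (1.45, adjusted p = 0.0272), 1 of 17 against 3.81% of all genes.

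Of 12 hepatocyte transcription factors that act on acute phase genes, 8 were higher and 4 lower against REG. Cebpb, a C/EBP factor of the family whose core letters stand in the promoters above, was at 0.93 in hADMSCs-Exo against REG (standard error 0.23, adjusted p = 0.380, edgeR) and 0.93 without hADMSCs-Exo 3, and at -1.23 in REG against LFG (0.31, adjusted p = 0.309). Its levels were 88.2, 123 and 158 CPM in LFG, 68.2, 46.5 and 40.7 CPM in REG and 119, 78.5 and 100 CPM in hADMSCs-Exo, so REG lay below both other groups with no overlap, as 15.5% of all genes did not overlap between REG and hADMSCs-Exo and 18.9% between REG and LFG. Dbp, a clock-controlled activator of the Alb promoter, was at -1.09 against REG (adjusted p = 0.411, edgeR). Against LFG the factors were 8 higher and 4 lower, and in REG against LFG 6 and 6, with none past the thresholds in edgeR's test. DESeq2 called Cebpb in REG against LFG (-1.22, adjusted p = 0.0192), 1 of 12 against 1.91% of all genes. Without LFG 3, edgeR's test called Dbp at 2.91 (adjusted p = 0.00855) and Cebpa at 1.47 (adjusted p = 0.0324), both higher in REG, 2 of 12 against 3.81% of all genes.

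What set hADMSCs-Exo 3 apart from hADMSCs-Exo 1 and 2 was described over the same lists, without a test, since a single library has no replicate. It was singled out by its reads on the 7 positive genes, so their high ranks and share here were fixed in advance. By the ratio of its CPM to the mean of the other two, Saa2 had rank 1, Saa1 rank 2, Orm2 rank 5, Lcn2 rank 8 and Orm1 rank 86 among 12760 genes. Of the 7 positive genes, 6 were at least 2-fold higher in hADMSCs-Exo 3, all but Saa3 at 1.91-fold, compared with 1.84% of all genes. In the list of other positive acute phase genes 6 of 22 were, namely Orm3, Apcs, Itih3, Fgl1, Mt1 and Serpina3n, with a list median of 0.62 on the log2 scale against -0.019 over all genes. In the 3 remaining lists none of the 49 genes tested was.

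Not all acute phase genes took part. Hamp, which encodes hepcidin, the iron hormone that IL-6 induces, was at 95.2 CPM in hADMSCs-Exo 3, between the other two libraries (593 and 69.8 CPM). Relative to the mean of those libraries, Crp was at 1.13 times and Lbp, the lipopolysaccharide-binding protein, at 1.13 times. Socs3 was at 0.858, Stat3 at 0.841 and Il1b at 0.673 of that mean, and the liver factor Onecut1 was at 1.39 CPM against 9.71 and 1.93 CPM in hADMSCs-Exo 1 and 2. Cebpd, a C/EBP factor induced in inflammation, was at 21.7 CPM against 5.39 and 19.1 CPM in hADMSCs-Exo 1 and 2, near the latter. In hADMSCs-Exo 3 the markers of cholangiocytes summed to 128 CPM against 53.2 and 58.0 CPM in the other two, those of macrophages to 1196 CPM against 1041 and 962 CPM, and those of hepatocytes to 43868 CPM against 38768 and 43023 CPM, and their part in the acute phase levels was not tested.

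**Figure D4:**
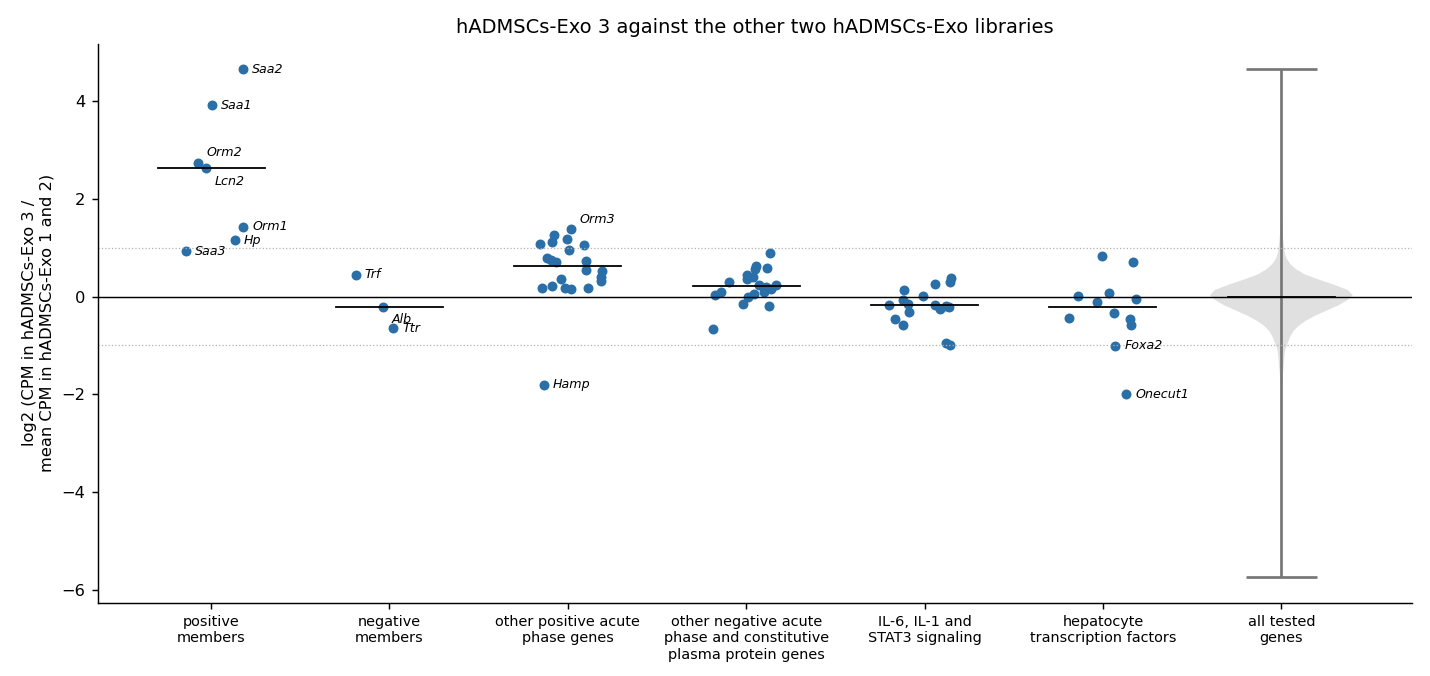
Log2 ratio of the CPM in hADMSCs-Exo 3 to the mean CPM in hADMSCs-Exo 1 and 2, with 1 point per gene in each list, a bar at the list median, dotted lines at a 2-fold change and, at the right, the distribution of all 12760 tested genes. The positive genes have a median of 2.62 and reach 4.64 (Saa2), whereas the lists of signaling genes and transcription factors have medians of -0.18 and -0.22.

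Pearson's r of log2 CPM over the 9 libraries, which share depth scaling and the libraries that stand apart, is given as a description. Saa1 was closest to Saa2 (r = 0.977, and 0.939 without hADMSCs-Exo 3), followed by Vasn (0.918), Orm1 (0.905), Tmem138 (0.894) and Eps8l1 (0.884). With Lcn2 its r was 0.209, and -0.520 over the 8 libraries without hADMSCs-Exo 3, so apart from that library the Saa1 and Lcn2 levels did not go together. Of those 8 libraries, LFG 3 had the highest Saa1 and the lowest Lcn2, and its part in that r was not tested. The genes closest to Lcn2 were Agap2 (0.955), Galns (0.953), Fasl (0.936), Clec10a (0.921) and Procr (0.914), of which Clec10a encodes a lectin of macrophages and dendritic cells and Fasl the death ligand of cytotoxic lymphocytes. Closest to Alb were Brdt (0.970), Acss2 (0.940), Tm7sf2 (0.930), Tbc1d30 (0.922) and Nsdhl (0.917), of which Tm7sf2 and Nsdhl encode enzymes of cholesterol synthesis and Acss2 makes acetyl-CoA from acetate. None of the other 9 genes was among the 5 closest to Alb or to Lcn2. Alb had r = 0.491 with Ttr and 0.432 with Trf, and Ttr had r = -0.795 with Lcn2.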

How the data were processed

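RNA from whole mouse liver was analysed in 9 libraries. Per the submitters' notes the authors used cutadapt 1.15, HISAT2 2.0.5, HTSeq 0.9.1 and DESeq 1.30.0 with GRCm38, and prepared libraries from Trizol-extracted RNA with an NEBNext Ultra kit. The authors deposited raw counts per gene and FPKM for the same genes, the latter equal to counts divided by gene length and library total (largest relative difference 9.19e-07). Each library held 13837445 to 19840917 counts.

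Groups were compared pairwise, 3 against 3, with edgeR 4.0.16 in R 4.3.3 (quasi-likelihood test, two-sided, TMM, filterByExpr, Benjamini-Hochberg adjustment over all genes tested, adjusted p under 0.05 and absolute log2 fold change of at least 1), which was tested on simulated data. Standard errors were derived from the fold change and the test statistic. CPM used TMM factors, and log2 CPM a prior count of 2. A two-sided exact permutation test of 3 against 3 cannot go below 0.1 and was not used. Promoters came from RefSeq (GRCm38.p6) and transcripts from GENCODE M21.

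The 10 genes and all gene lists were chosen with earlier results of these data known. All 10 are described; of each list, counts, the median and at most 2 genes with the smallest p per direction are named, and for Saa1, Lcn2 and Alb the 5 genes with the highest r. Cebpb levels, and the genes named for hADMSCs-Exo 3, were singled out after their values were seen. Alternatives were other scalings, filters and tests (DESeq2 1.42.0, limma 3.58.1 voom), a replicate block, other thresholds and leaving out libraries. Same-numbered libraries of hADMSCs-Exo and LFG deviated together (r = 0.107, 0.313 and 0.191), which was the only ground for treating the numbers as pairs.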

Additional observations from a re-analysis of the deposited data

How the results depend on the processing

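With DESeq2, 1 of the 10 genes passed the thresholds in hADMSCs-Exo against REG, and with an unadjusted p 2 did, and 1 against LFG, where the adjusted test of edgeR called 0. Over all genes, hADMSCs-Exo against REG had 1 gene past the thresholds, but 4 with no filter on low counts, 67 with DESeq2, 3 with voom, 0 with all 9 libraries in one fit, 266 with an unadjusted p, and 0 to 1 with each library left out (0 without REG 2 or hADMSCs-Exo 3). Against LFG it had 0, but 60 with DESeq2, 1 with voom, 1 in the joint fit, 374 with an unadjusted p, 3 without LFG 3 and hADMSCs-Exo 3 together (chosen after seeing the data), and 0 to 773 with each library left out (773 without LFG 3). REG against LFG had 0, but 239 with DESeq2, 1285 with voom, 537 with an unadjusted p, and 0 to 1391 with each library left out (1391 without LFG 3). The cause of these differences was not tested.

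Of the log2 fold changes of the 10 genes, 425 values under alternatives kept their sign and their status as called or not, 34 changed sign and 1, Saa3 in DESeq2, became a call. Some of the 425 crossed the limit of 1 without a change in call, such as Orm2 against REG without hADMSCs-Exo 3 (2.44 to 0.91). With each library left out, the values that changed sign against REG ran from -0.36 to 3.11 for Saa1, -0.92 to 3.90 for Saa2, -0.22 to 0.75 for Orm1 and -0.14 to 0.18 for Trf. Against LFG they ran from -1.23 to 1.84 for Saa1, -1.13 to 2.59 for Saa2, -0.058 to 0.91 for Orm1, -0.23 to 1.75 for Lcn2, -0.077 to 0.26 for Alb, -0.57 to 0.21 for Ttr and -0.035 to 0.30 for Trf. In REG against LFG they ran from -1.80 to 0.23 for Saa2, -0.050 to 0.33 for Orm1, -0.80 to 0.13 for Lcn2, -0.14 to 0.56 for Hp, -0.058 to 0.47 for Ttr and -0.036 to 0.28 for Trf. Without LFG 3 and hADMSCs-Exo 3, against LFG, Saa1 was at -0.69, Saa2 at -0.97, Lcn2 at -0.77, Ttr at 0.39 and Trf at -0.041. Library totals alone moved the median of all genes by -0.20 in REG against LFG and by -0.12 in hADMSCs-Exo against LFG, and put Orm1 at -0.033 and Trf at -0.074 in REG against LFG. With voom Trf was at -0.0057 there.

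With the replicate number as a block, 0 of the 10 genes passed the thresholds in each of the 3 comparisons, as without it. Against REG, Saa1 was then at 0.89 (2.16 without the block), Saa2 at 0.73 (2.26), Lcn2 at 0.79 (1.51), Orm2 at 1.90 (2.44) and Trf at -0.00056. Against LFG, Saa1 was at 0.17 (1.27), Saa2 at 0.35 (2.03), Lcn2 at 0.53 (1.19) and Orm2 at 1.55 (2.09), and Lcn2 in REG against LFG was at 0.33. Only in hADMSCs-Exo and LFG did all 3 same-numbered pairs deviate together by over 0.1, and the block there changed no call of the 10 genes. In the other comparisons the lowest correlations were -0.0073 (hADMSCs-Exo and REG) and -0.21 (REG and LFG), so those numbers were not treated as pairs.

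The 30 differences in level and 21 differences in ratio between groups moved by less than the spread between replicates with CPM of library totals or with Alb, Ttr and Trf summed as the denominator. The precision is limited by 3 libraries per group. The median SD of log2 CPM over all genes was 0.468 in LFG, 0.231 in REG and 0.243 in hADMSCs-Exo.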
